A study of Homo sapiens with 6 samples.

Results

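The genes described here were counted in every library of the human colonic epithelial line 1CT and were at or near zero in every library of its APC-depleted derivative 1CT-A. Gene expression was measured by 3′-end RNA sequencing (QuantSeq, which reads a tag near the end of each polyadenylated transcript) in 3 libraries of 1CT, labelled HCEC 1CT_WT, and 3 of 1CT-A, labelled HCEC 1CT_APC KD. Both are immortalized lines that carry introduced human telomerase; they were grown in the same serum-poor medium with growth factor, hormone and insulin supplements, and neither received a treatment. Both lines came from another laboratory, and whether 1CT-A is 1 clone is not given in the sources used here. The labels do not say that the libraries of a line came from separate cultures, so p-values measure only the spread between these libraries.

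The members were selected on these same counts: a mean of at least 2 CPM (the count scaled to a library total of 1000000) over the 3 libraries of 1CT, and at most 3 counts in each library of 1CT-A. Of 24462 symbols, 11505 reached 2 CPM in 1CT, and 83 of those stayed within 3 counts in 1CT-A. HOXC10, IFI27, TERT, TLR4 and ZNF667 are left out by name in the definition of the set, which leaves 78 members, or 0.678% of the symbols at 2 CPM. Among the 78 were 65 protein-coding genes, 9 long noncoding RNAs and 3 pseudogenes, and 1 entry, LOC400043, had no place in the annotation used. Members on the Y chromosome, 4 near-identical copies of 1 gene family, are only counted, and the values below are those of the other 74. Because the levels in the 2 lines chose the members, their levels and ratios are given as a description with no test. In the comparison of the lines over 12514 genes, 26.0% were called lower in 1CT-A and 25.0% higher (edgeR quasi-likelihood test, Benjamini-Hochberg adjusted p under 0.05). Of the 78 members, 77 passed the filter on low counts, through 1CT, and all 77 were called lower, which the selection fixes.

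**Figure D1:**
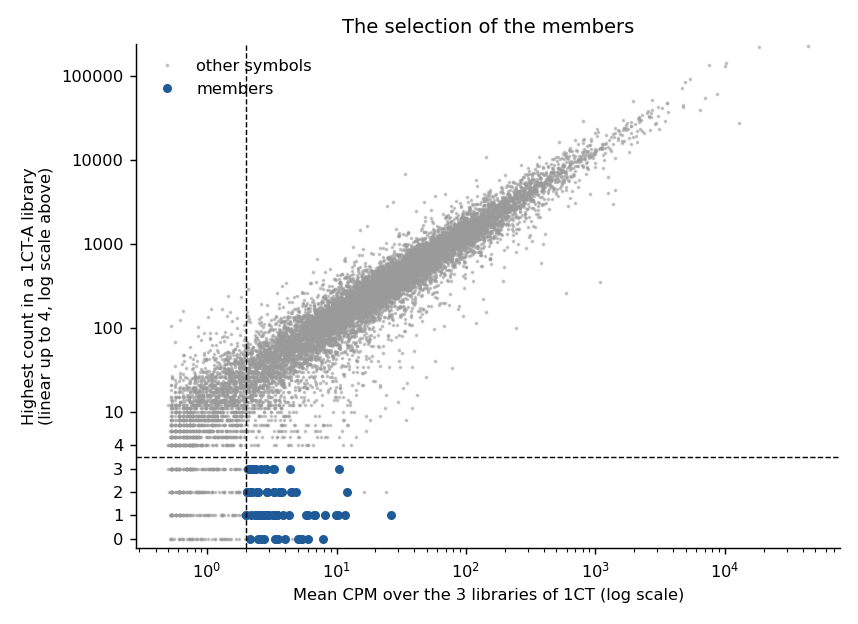
Each point is 1 symbol, placed by its mean CPM over the 3 libraries of 1CT (log axis) and by its highest count in a library of 1CT-A (linear up to 4, log above); the dashed lines mark the limits of 2 CPM and 3 counts. The 74 members fill the lower right corner between 2.005 and 26.17 CPM, the grey points there are the 5 symbols left out by name, and symbols on the Y chromosome and XIST are not drawn.

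Cells keep genes off in several ways. Methylation of CpG dinucleotides near a start site and histone marks placed by the Polycomb complexes are the best known, and both can be passed on through cell division. APC is a scaffold of the complex that marks beta-catenin for destruction, and beta-catenin with TCF/LEF factors activates Wnt target genes. Some members are known from tissues other than colon epithelium: adhesion molecules of neurons, receptors of autonomic transmitters, acute-phase and myeloid genes.

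Total counts were 7788679 to 8452258 per library in 1CT and 11158108 to 12602988 in 1CT-A, so the libraries in which the members were at or near 0 were on average 1.43 times deeper. A count of 3 was worth 0.355 to 0.385 CPM in 1CT against 0.238 to 0.269 CPM in 1CT-A. APC itself had 417, 363 and 363 counts in 1CT and 351, 342 and 433 in 1CT-A, which is 46.6 ± 2.75 CPM against 31.9 ± 2.21 CPM (SD, n = 3); on the log2 scale it fell by 0.58 (SE 0.09, edgeR adjusted p = 0.00018). Of 12 colon epithelium markers, EPCAM, VIL1 and CLDN3 were at 0 in all 6 libraries, and CDH1 had at most 4 counts. Only KRT18, KRT19 and CLDN7 had enough counts to test, and all 3 were lower in 1CT-A. KRT19 is a member, so the selection fixes its fall. The list, with KRT19 in it at 3.33 CPM in 1CT, summed to 41.3 to 45.5 CPM in 1CT against 23.6 to 30.9 CPM in 1CT-A. All 10 fibroblast markers were counted in both lines, at a summed 43070 to 50560 CPM in 1CT against 19970 to 21430 CPM in 1CT-A. Most of each sum was FN1 (fibronectin), at a mean of 44240 CPM in 1CT and 18130 CPM in 1CT-A. Of the 10, 6 were lower and 2 higher in 1CT-A, against 26.0% and 25.0% of all genes tested. EPCAM, VIL1 and CDH1 were thus at or near 0 in both lines, while CLDN7 was at 26.6 and 20.6 CPM and KRT18 at 11.2 and 5.06 CPM in 1CT and 1CT-A.

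Sequences around the start sites are shown for the 6 members with the highest level in 1CT that have an entry in the RefSeq promoter table (GRCh38.p14), because CpG content is described below and these windows differ in it. Each runs 5′ to 3′ on the strand of the gene, from 250 bases before to 50 bases after the first listed start, and capitals mark each CpG dinucleotide. The windows are PPP2R2B at chr5:147055912-147056211 on the minus strand, ZNF667-AS1 at chr19:56477624-56477923 on the plus strand, CADM3 at chr1:159171365-159171664 on the plus strand, ZC4H2 at chrX:64976401-64976700 on the minus strand, TRHDE-AS1 at chr12:72273460-72273759 on the minus strand and TIAM1 at chr21:31559038-31559337 on the minus strand.
PPP2R2B: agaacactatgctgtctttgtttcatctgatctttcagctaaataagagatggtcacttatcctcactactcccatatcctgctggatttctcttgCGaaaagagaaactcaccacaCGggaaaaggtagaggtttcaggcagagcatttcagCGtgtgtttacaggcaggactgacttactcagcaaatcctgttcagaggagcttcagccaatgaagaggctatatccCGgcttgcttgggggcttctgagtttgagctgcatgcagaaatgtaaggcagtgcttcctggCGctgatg
ZNF667-AS1: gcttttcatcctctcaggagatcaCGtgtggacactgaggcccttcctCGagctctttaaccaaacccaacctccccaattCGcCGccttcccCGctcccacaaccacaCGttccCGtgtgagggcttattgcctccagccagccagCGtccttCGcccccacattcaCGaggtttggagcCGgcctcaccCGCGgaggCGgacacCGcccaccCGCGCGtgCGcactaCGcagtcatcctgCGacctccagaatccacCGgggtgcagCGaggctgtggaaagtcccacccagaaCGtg
CADM3: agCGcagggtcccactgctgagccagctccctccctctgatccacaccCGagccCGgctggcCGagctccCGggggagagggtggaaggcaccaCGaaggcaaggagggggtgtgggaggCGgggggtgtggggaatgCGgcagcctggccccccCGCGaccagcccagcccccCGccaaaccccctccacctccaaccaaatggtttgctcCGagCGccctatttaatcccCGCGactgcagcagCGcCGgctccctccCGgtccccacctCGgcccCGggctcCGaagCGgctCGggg
ZC4H2: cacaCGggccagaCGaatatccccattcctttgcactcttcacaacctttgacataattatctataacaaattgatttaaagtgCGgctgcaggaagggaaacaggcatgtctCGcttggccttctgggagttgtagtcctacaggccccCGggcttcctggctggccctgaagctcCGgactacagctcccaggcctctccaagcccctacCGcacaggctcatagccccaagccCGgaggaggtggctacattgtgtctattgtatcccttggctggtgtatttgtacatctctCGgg
TRHDE-AS1: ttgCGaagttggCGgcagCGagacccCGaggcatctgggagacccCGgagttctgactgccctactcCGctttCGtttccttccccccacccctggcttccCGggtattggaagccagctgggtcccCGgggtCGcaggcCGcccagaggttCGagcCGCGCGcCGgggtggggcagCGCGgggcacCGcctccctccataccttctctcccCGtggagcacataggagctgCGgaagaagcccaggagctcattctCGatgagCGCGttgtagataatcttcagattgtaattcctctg
TIAM1: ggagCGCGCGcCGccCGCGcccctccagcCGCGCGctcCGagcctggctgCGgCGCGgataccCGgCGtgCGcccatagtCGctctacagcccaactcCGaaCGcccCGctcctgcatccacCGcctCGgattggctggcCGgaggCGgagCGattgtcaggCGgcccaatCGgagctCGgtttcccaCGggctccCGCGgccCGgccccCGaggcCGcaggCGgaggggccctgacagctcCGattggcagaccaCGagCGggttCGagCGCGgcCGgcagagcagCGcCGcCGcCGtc

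The 6 windows ran from sparse to dense in CpG. Over all members with an entry, the highest observed to expected ratio of a gene's windows ran further, from 0.0943 in LINC01085 to 1.42 in MAP7D2. PPP2R2B held 5 CpG, a ratio of observed to expected of 0.303 at a GC content of 47.0%, and ZC4H2 held 9, a ratio of 0.417. CADM3 held 23, but its GC content of 72.3% put the ratio at 0.592. ZNF667-AS1 and TRHDE-AS1 held 24 each (ratios of 0.852 and 0.783), and TIAM1 held 46 (ratio of 1.07, GC 76.0%). PPP2R2B and ZC4H2 each have a second listed start whose window passes the limits for a CpG-rich region used below.

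The 74 members summed to 2660, 2633 and 2419 counts in the 3 libraries of 1CT (314.7, 317.9 and 310.6 CPM) and to 64, 57 and 59 counts in those of 1CT-A (5.74, 5.00 and 4.68 CPM). The remaining counts were spread thinly: 12 members were at 0 in all of 1CT-A, 41 had 1 to 3 counts over the 3 libraries together, and 21 had 4 or more, the highest sum being 7. Between 30 and 38 members were at 0 in any 1 library of 1CT-A. At a summed 0, the depth allows a level of up to 0.0853 CPM (3 counts over the 3 libraries), so these genes were not detectable at this depth, which does not show that they are absent. In 1CT they were low to moderate genes, with a median of 3.25 CPM, 16 at 5 CPM or more and 5 at 10 CPM or more. In bulk RNA, fewer expressing cells and less RNA per cell cannot be told apart.

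The ratio of 1CT to 1CT-A was taken from counts summed over the libraries of a line and scaled by their totals, with a 95% exact (Clopper-Pearson) interval that covers counting error only. The lower bound of this interval ran from 5.56 to 164.8 over the 74 members, with a median of 14.9, and it was at least 10 in 53 and at least 30 in 17. Within 1CT, the highest library held no more than 1.5 times the CPM of the lowest in 37 members, and the median of this quotient was 1.51. The members did not peak in 1 library: 22, 23 and 29 of the 74 were highest in replicates 1, 2 and 3.

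**Figure D2:**
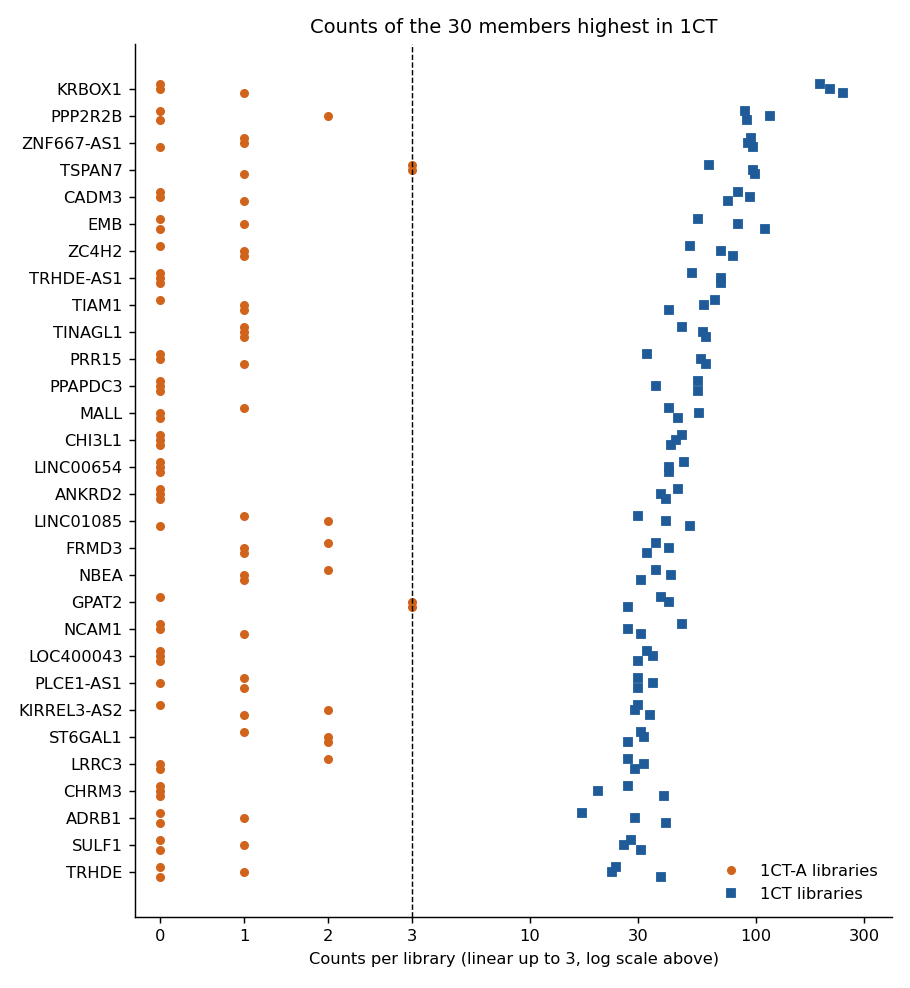
Counts in each library (linear up to 3, log above) of the 30 members highest in 1CT, with squares for the 3 libraries of 1CT and circles for the 3 of 1CT-A; the dashed line marks the limit of 3 counts that chose them. The squares lie between 17 (ADRB1) and 241 (KRBOX1) counts, and the circles lie between 0 and 3.

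The 5 members of the nuclear group summed to 42.5 to 47.4 CPM in 1CT, and most of that was 1 gene. KRBOX1 (chr3:42936386-42942792, plus strand), which encodes a protein with the KRAB box found in repressor zinc finger proteins, had 241, 211 and 191 counts in 1CT and 1, 0 and 0 in 1CT-A, or 26.2 ± 2.08 CPM (SD, n = 3) in 1CT. It was the highest member, and its ratio was 922 (interval 164.8 to 36460). ZC4H2, an X-linked zinc finger gene of neural development, had 79, 70 and 51 counts against 1, 1 and 0. ANKRD2, an ankyrin repeat protein of stretched muscle, had 40, 38 and 45 counts against 0 in every library of 1CT-A. Its ratio was at least 47.1 by the lower bound of the exact interval, and 58.8 against a floor of 3 counts over the group. Where a ratio is given below for another member at 0 throughout, both values stand in this order. The other members here were ZMAT1, a zinc finger gene, and RANBP17, a relative of the nuclear export receptors.

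Genes of neural adhesion and of the synapse made up 7 members, at a summed 25.0 to 33.5 CPM in 1CT against 0.263 to 0.717 CPM in 1CT-A. CADM3, an immunoglobulin-type adhesion molecule of axons, had 75, 94 and 83 counts in 1CT and 1, 0 and 0 in 1CT-A, a ratio of 361 (64.3 to 14320). NBEA, neurobeachin, a scaffold of vesicle traffic at synapses, had 31, 42 and 36 counts against 1, 1 and 2. NCAM1, the neural cell adhesion molecule, had 31, 27 and 47 counts against 1, 0 and 0. The lowest library of 1CT held 27 counts among these 3 genes, and NCAM1 was the most spread of them relative to its level (4.32 ± 1.5 CPM). CADPS2, TENM4, NRCAM and BEGAIN completed the group. Of 7 neural and glial markers, SOX10, S100B and GFAP were among those at 0 in all 6 libraries, and the list summed to 4.24 to 5.43 CPM in 1CT against 0.635 to 1.79 CPM in 1CT-A. SNAP25, a marker of the list and part of the vesicle fusion machinery, had 15, 16 and 7 counts in 1CT and 0 in each library of 1CT-A.

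Receptors and signalling proteins were 12 members, at 46.0 to 46.7 CPM summed in 1CT. PPP2R2B (chr5:146580742-147084784, minus strand), a regulatory subunit that directs protein phosphatase PP2A in neurons, had 91, 115 and 89 counts in 1CT and 0, 2 and 0 in 1CT-A, a ratio of 211 (58.0 to 1754). TIAM1, an exchange factor that activates the GTPase Rac, had 41, 59 and 66 counts against 1, 1 and 0. Both were low in 1CT-A in all 3 libraries, with 2 counts each in sum. CHRM3, a muscarinic acetylcholine receptor, had 39, 20 and 27 counts against 0 throughout, a ratio of at least 32.7 (41.1 against the floor). ADRB1, a beta adrenergic receptor, had 40, 29 and 17 counts against 0, 1 and 0. The 2 receptors varied more among the 1CT libraries than most members, with the highest over the lowest CPM at 1.91 and 2.17. The group also held the hedgehog-binding protein HHIP, the Ras-like GTPase RRAD, and ARHGAP40, GAREML, APBB1IP, ARAP2, PRR5 and ALS2CL.

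The group of epithelial, surface and matrix genes counted 8 members, with 41.2 to 48.3 CPM summed in 1CT against 0.448 to 0.878 CPM in 1CT-A. TSPAN7, an X-linked tetraspanin, had 99, 97 and 62 counts in 1CT and 1, 3 and 3 in 1CT-A, the largest remainder of the set together with USP32P2, and a ratio of 52.8 (25.3 to 132.7). EMB, embigin, a partner of lactate transporters in the membrane, had 109, 83 and 55 counts against 0, 1 and 0. TINAGL1, a secreted matrix glycoprotein, had 60, 58 and 47 counts against 1 in each library of 1CT-A. In these 3 genes the third library of 1CT was the lowest. MALL, a membrane raft protein, had 45, 56 and 41 counts against 0, 0 and 1. ST6GAL1, which caps glycans with sialic acid, had 27, 32 and 31 against 2, 2 and 1, and SULF1, which trims sulfate from heparan chains, had 31, 26 and 28 against 0, 1 and 0. EXTL1 and KRT19 closed the group. KRT19, a keratin of simple epithelia and also on the colon marker list, had 20, 27 and 34 counts in 1CT and 0 in every library of 1CT-A.

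Immune and acute-phase genes gave 6 members and the lowest sum of all groups, 17.7 to 20.0 CPM in 1CT. CHI3L1, a secreted chitinase-like protein of inflamed tissue, led them with 42, 44 and 47 counts in 1CT against 0 in every library of 1CT-A. Its ratio was at least 51.0 (63.6 against the floor). PF4, a platelet chemokine, had 30, 16 and 6 counts against 1, 0 and 3, and it was the most uneven member in 1CT (4.61 between the highest and lowest CPM) and the single member below the filter on low counts. The acute-phase protein SAA2, the lipid antigen presenter CD1D and the cytokine IL32 were also in this group. Of 10 immune markers, PTPRC, CD3E and CD3D were at 0 in all 6 libraries, and the list summed to 12.9 to 15.6 CPM in 1CT against 9.60 to 10.4 CPM in 1CT-A, mostly from CD68. The 7 endothelial markers summed to at most 6.76 CPM in 1CT and at most 2.63 CPM in 1CT-A, with CDH5 and TIE1 at 0 throughout, and the 5 smooth muscle markers to 181.6 to 255.0 and 173.5 to 186.9 CPM. The part of other cell types in the levels of the members was not tested.

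Metabolic and transport genes were the largest group, 14 members at 40.9 to 43.7 CPM in 1CT against 0.790 to 1.70 CPM in 1CT-A. PPAPDC3, a phosphatase-like protein of the nuclear membrane, had 55, 36 and 55 counts in 1CT and 0 in each library of 1CT-A. Its ratio was at least 56.0 (69.8 against the floor). GPAT2, an acyltransferase of glycerolipid synthesis, had 27, 41 and 38 counts against 3, 3 and 0. TRHDE, the membrane peptidase that degrades thyrotropin-releasing hormone, had 38, 23 and 24 counts against 0, 1 and 0. Of these 3 genes, GPAT2 sat at the limit of 3 counts in 2 libraries of 1CT-A. SLC37A1, a sugar phosphate exchanger near the lower limit of selection, had 17, 22 and 11 counts against 1, 0 and 2. Named without values, the group also held LIPH, SLC12A7, PPAP2C, ATP6V0A4, RGN, EEF1A2, PDK3, MT1F, GRAMD1B and SNX10. MT1F, EEF1A2 and SAA2 have close relatives counted many times higher, GPAT2 and ANKRD30B belong to families with near copies, and reads between such genes can be split in ways the counting does not show.

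RNA genes and pseudogenes were 13 members, at 56.4 to 57.6 CPM the highest sum in 1CT. ZNF667-AS1 (chr19:56477250-56504362, plus strand) had 97, 92 and 95 counts in 1CT and 0, 1 and 1 in 1CT-A, an even level in 1CT of 11.6 ± 0.554 CPM. TRHDE-AS1 (chr12:72249964-72276954, minus strand) had 70, 70 and 52 counts against 0 in every library of 1CT-A, a ratio of at least 73.9 (91.8 against the floor). Both are transcribed from the strand opposite to a coding gene. LINC00654 had 41, 41 and 48 counts and LOC400043 30, 35 and 33, each with 0 in all of 1CT-A. LINC01085 had 51, 40 and 30 counts against 0, 2 and 1, PLCE1-AS1 had 30, 35 and 30 against 1, 0 and 1, and KIRREL3-AS2 had 34, 29 and 30 against 1, 2 and 0. USP32P2 had 28, 27 and 16 counts against 3, 3 and 1, and FAM106A 16, 23 and 15 against 1, 2 and 0. USP32P2 and FAM106A overlap each other on chromosome 17, FAM106A also overlaps CCDC144B, and these genes have near copies, so their counts are uncertain. LINC01296, LINC00839, KCCAT211 and ZNF793-AS1 were the rest.

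The other 9 members have mixed or little-known roles. PRR15, a proline-rich protein, had 60, 57 and 33 counts in 1CT and 1, 0 and 0 in 1CT-A. FRMD3, a FERM domain protein of the membrane skeleton, had 33, 41 and 36 counts against 1, 1 and 2. LRRC3, a leucine-rich repeat membrane protein, had 29, 32 and 27 counts against 0, 0 and 2. All 3 had at least 27 counts in each 1CT library and at most 2 in any of 1CT-A, inside the limits that chose them. C10orf35, KIAA1671, ANKRD30B, KLHL4, MAP7D2 and C1orf110 are named without values.

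The limits cut through a continuous range of levels. The members lowest in 1CT were ALS2CL (2.005 CPM; 16, 15 and 18 counts), BEGAIN (2.006), SLC37A1 (2.03), ZNF793-AS1 (2.04) and PF4 (2.08). Just below 2 CPM, with at most 3 counts in each library of 1CT-A, came ARHGEF35 at 1.99, FABP4 at 1.99, C19orf35 at 1.98, DOK5 at 1.98 and GADD45G at 1.96 CPM. On the other side, 17 symbols with 2 CPM or more in 1CT had a highest count of 4 in 1CT-A. The top of these was RNF182, a ubiquitin ligase of brain, with 121, 105 and 90 counts in 1CT and 2, 4 and 0 in 1CT-A, above all members except KRBOX1. KIAA1549L followed at 11.2 CPM, DNAJA4 at 6.61, SUSD3 at 5.99 and SHISA3 at 5.98 CPM.

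With the lines exchanged, the same limits gave 9 genes out of 11067 symbols at 2 CPM or more in 1CT-A, or 0.0813%, against 78 (0.678%) in the direction described here. Since 3 counts are a smaller level in the deeper libraries, the limit was also set at 0.3 CPM in each library for both directions, which gave 78 and 6 genes. The highest of the 9 was C5orf66-AS1, with 0, 1 and 2 counts in 1CT and 112, 115 and 132 in 1CT-A. IQGAP2, a scaffold protein of the cell cortex, had 0, 2 and 1 against 50, 55 and 69, and TNFAIP6, a secreted hyaluronan-binding protein, had 1, 3 and 0 against 34, 43 and 40. PGM5P3-AS1 reached 4.47 CPM and the carboxylesterase CES1 4.30 CPM in 1CT-A. The size of either set is a property of the limits, and no test sets one against the other.

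The members were scattered over the genome. Of the 73 placed outside the Y chromosome (GENCODE release 44 on GRCh38), members lay on 21 of 23 chromosomes, with none on 6 and 15. They were 0.647% of the placed symbols at 2 CPM or more in 1CT. The X chromosome held 7 of its 373 such symbols (1.88%), namely TSPAN7, ZC4H2, ZMAT1, RGN, KLHL4, MAP7D2 and PDK3, and chromosome 21 held 3 of 104 (2.88%), TIAM1, LRRC3 and SLC37A1. Of the other X-linked symbols at that level, 365 were tested, 105 being lower and 93 higher in 1CT-A. These shares were near the 26.0% lower and 25.0% higher of all genes tested. Within 500 kb of each other lay 2 pairs of members, TRHDE with TRHDE-AS1 and FAM106A with USP32P2, and both pairs overlap.

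Some genes that overlap a member on the other strand were low in 1CT-A too. Of the 74 members, 21 overlapped another listed symbol, and since the use of strand in the counting is not stated, reads of overlapping genes cannot be told apart. ZNF667, a KRAB zinc finger gene beside ZNF667-AS1 and left out of the members by name, had 16, 15 and 21 counts in 1CT and 0 in every library of 1CT-A. CADM3-AS1 had 12, 7 and 4 counts against 0 throughout, and KRBOX1-AS1 had 10, 3 and 3 against 0 throughout. ZNF793, opposite ZNF793-AS1, had 31, 25 and 39 counts against 4, 5 and 4, a log2 fold change of -3.39 (SE 0.37, edgeR adjusted p = 7.4e-06). A different case was PLCE1, a phospholipase gene opposite PLCE1-AS1, which kept 23, 35 and 28 counts in 1CT-A against 38, 50 and 57 in 1CT (log2 fold change -1.31, SE 0.25, edgeR adjusted p = 0.00085). KIRREL3, opposite KIRREL3-AS2, had 12, 6 and 10 counts in 1CT and 3, 2 and 9 in 1CT-A, too few for the test.

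The nearest genes on either side that are not members were looked at next. For each of the 73 placed members, the 3 closest tested genes on each side that are not members were taken, 415 genes in all. Of these, 116 (28.0%) were lower in 1CT-A, 107 (25.8%) were higher and 192 had no call, near the 26.0% and 25.0% of all genes tested. Their median log2 fold change was -0.03, against -0.01 over all genes. Large falls were a small part of them: 15 of the 415 (3.61%) had a log2 fold change of -3 or less, as did 187 of all tested genes that are not members (1.5%). Without the symbols left out of the members by name, these were 13 of 413 (3.15%) and 182 (1.46%). The 13 still include ZNF793, which overlaps ZNF793-AS1, and SAA1, a near copy of SAA2, so reads may be shared with the member. No member had all of its tested neighbours called lower. No limit was set on distance, so a neighbour called next to or beside a member below need not adjoin it.

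The 5 steepest falls among the neighbours included TERT and ZNF667, which would be members had they not been left out by name. TERT, the telomerase subunit gene next to SLC12A7, had 31, 21 and 58 counts in 1CT and 0 in each library of 1CT-A; the lines carry telomerase as a transgene, and transcripts of it and of the cell's own gene cannot be told apart here. IL18, a cytokine of the interleukin-1 family next to NCAM1, had 316, 310 and 227 counts against 4, 8 and 6, a log2 fold change of -6.09 (SE 0.22, edgeR adjusted p = 4.1e-10). SAA1, next to SAA2 and a near copy of it, had 314, 386 and 278 counts against 3, 53 and 9, and IGF2BP2-AS1, next to LIPH, had 58, 77 and 95 against 5, 10 and 5. In SAA1 the second library of 1CT-A stood far above the other 2, yet below all of 1CT.

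Other neighbours rose beside a silent member. MASP1, a protease of the complement lectin pathway next to ST6GAL1, had 0, 5 and 2 counts in 1CT and 122, 92 and 89 in 1CT-A, a log2 fold change of 4.83 (SE 0.45, edgeR adjusted p = 1.9e-06). CXCL3 and CXCL2, neutrophil chemokines next to PF4, rose from 17, 14 and 14 to 173, 206 and 231 counts and from 11, 7 and 8 to 54, 75 and 87 counts. In this chemokine cluster PF4 was low in the line where CXCL2 and CXCL3 were high. GK, a glycerol kinase next to PDK3, had 16, 15 and 19 counts against 133, 153 and 147, and THOC6, a subunit of an mRNA export complex next to IL32, had 3, 6 and 3 against 26, 31 and 23.

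**Figure D3:**
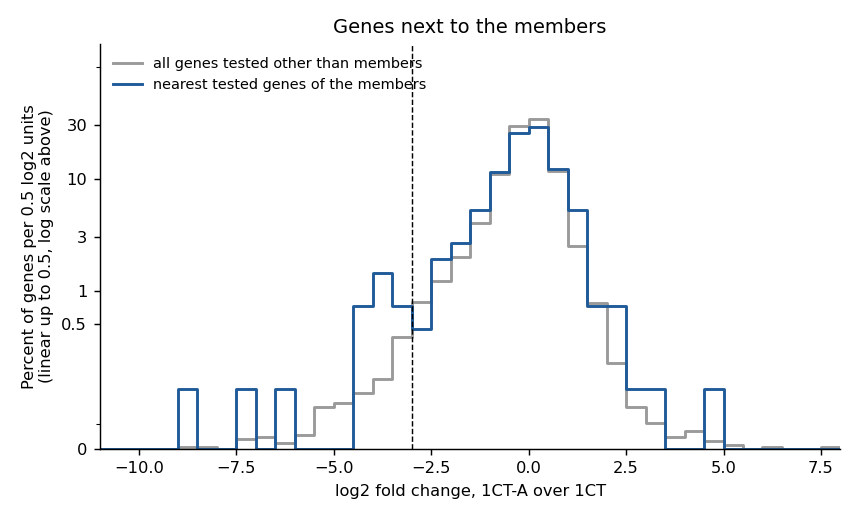
Percent of genes in each step of 0.5 on the log2 fold change axis (1CT-A over 1CT) for the 415 tested genes nearest to the members and for all tested genes that are not members; the vertical axis is linear up to 0.5 and log above, and the dashed line marks -3. The 2 outlines follow each other around 0, with medians near 0, and the neighbours have the larger share left of -3 (3.61% against 1.5%). That share includes TERT and ZNF667, left out of the members by name, and ZNF793, which overlaps a member.

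Family relatives are genes that encode a protein of the same kind as a member. They were listed for 46 members after the names of the members were known, and 91 relatives were in the files. Of 61 with enough counts to test, 30 (49.2%) were lower in 1CT-A, 5 (8.20%) higher and 26 had no call. Over all genes 26.0% were lower and 25.0% higher, and the median log2 fold change of the relatives was -0.34. These shares depend on the list, which was not complete. Among those left out near MT1F were MT1A (log2 fold change 0.73), MT1G (-0.75) and MT1H (-0.96). Left out near PF4 were the chemokines CXCL1, CXCL2, CXCL3, CXCL5 and CXCL6, all called higher, and CXCL8, with no call. A relative with at least 10 CPM in 1CT-A was present for 25 members.

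Some relatives fell as far as some members or further, though they kept more counts in 1CT-A. ANKRD1, the other stretch-responsive ankyrin gene beside ANKRD2, had 8920, 8655 and 9160 counts in 1CT and 250, 354 and 192 in 1CT-A, a log2 fold change of -5.62 (SE 0.18, edgeR adjusted p = 1.9e-10). KRT7, a keratin of simple epithelia like KRT19, had 208, 167 and 201 counts against 7, 11 and 8, a log2 fold change of -5.01. PRR5L, a relative of the TORC2-binding protein PRR5, had 97, 124 and 99 counts against 4, 10 and 6. For all 3 the libraries of the 2 lines lay far apart. NFASC, an adhesion molecule like NRCAM, fell by 2.08 on the log2 scale, and SLC37A2, a relative of SLC37A1, by 2.42.

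Other families were split. Beside PPP2R2B, the subunit PPP2R2C fell by 2.30 on the log2 scale (398, 370 and 363 against 113, 103 and 121 counts), while the ubiquitous PPP2R2A had 959, 994 and 948 counts against 1426, 1426 and 1460 in the deeper libraries, a log2 fold change of 0.02 (SE 0.08, edgeR adjusted p = 0.88). EEF1A1, the translation factor related to EEF1A2, was at 0.12 (SE 0.07) and had no call. Beside PPAP2C, the lipid phosphatases PPAP2A and PPAP2B rose by 0.42 and 0.92, beside RRAD the GTPase GEM rose by 1.42, and beside NBEA its relative LRBA rose by 0.64. CHL1, beside NRCAM, had 10, 42 and 7 counts in 1CT and 67, 92 and 91 in 1CT-A, a log2 fold change of 1.52 with an edgeR adjusted p of 0.0076 and a DESeq2 adjusted p of 0.075. CADM1, beside CADM3, differed so much between libraries (1, 51 and 9 against 2, 13 and 0 counts) that its log2 fold change of -2.54 had an SE of 1.01 and no call.

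**Figure D4:**
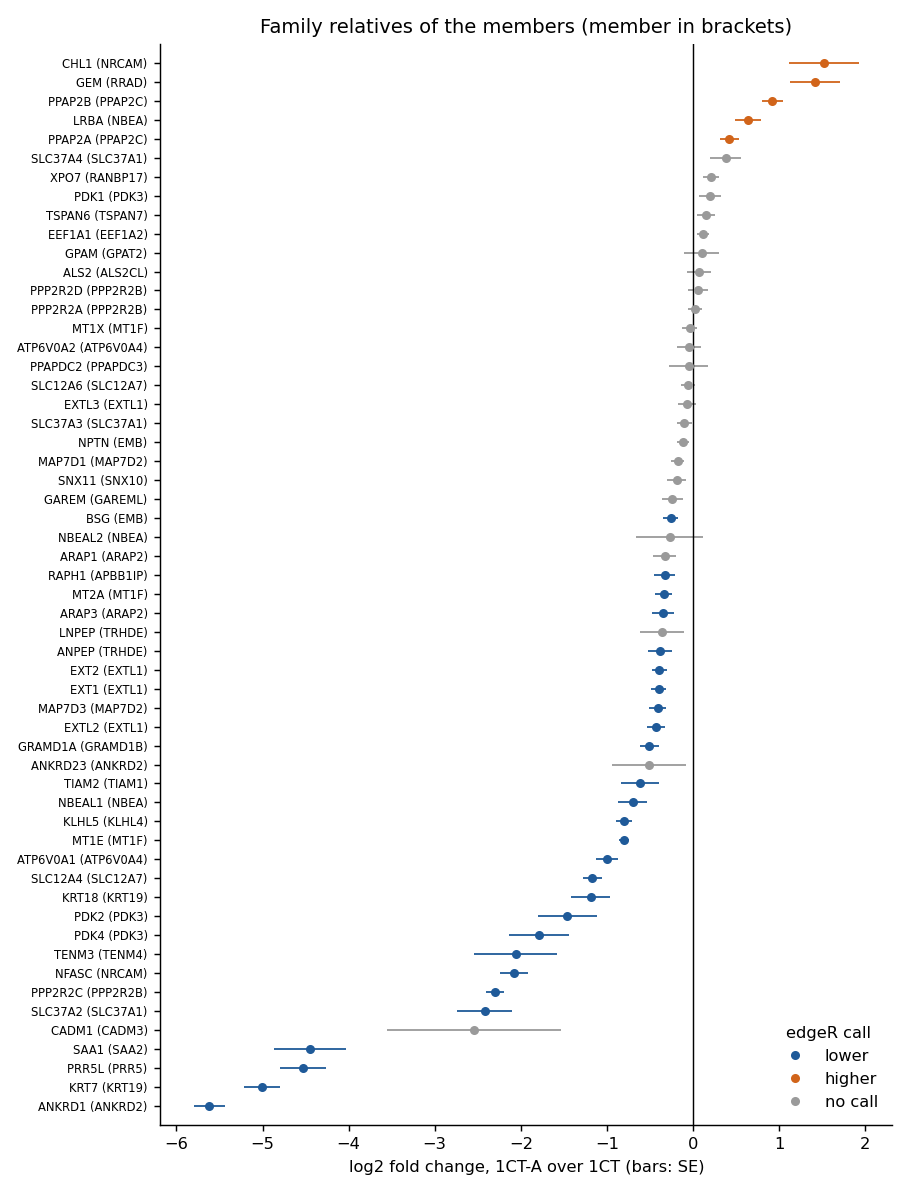
Log2 fold change (1CT-A over 1CT, bars are SE) of 56 of the 61 tested family relatives, each with its member in brackets, coloured by the edgeR call at an adjusted p under 0.05. ANKRD1, KRT7, PRR5L and SAA1 lie below -4, 24 relatives without a call lie mostly near 0, and CHL1, GEM, PPAP2B, LRBA and PPAP2A are the 5 called higher.

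Genes of DNA methylation, of the Polycomb complexes and of histone H3 lysine 9 methylation were listed as 44 genes, and all 44 were tested. Nearly all are known for keeping genes silent, and TET1, TET2 and TET3 were the only ones that remove a mark. Of these, 24 (54.5%) were higher in 1CT-A and 3 (6.82%) lower, against 25.0% and 26.0% of all genes, and their median log2 fold change was 0.33 against -0.01. Their summed level was 2758 to 2801 CPM in 1CT against 3859 to 3974 CPM in 1CT-A. Those called with a log2 fold change of at least 1 in size included genes that place marks and genes that remove them. CBX2, a reader of the Polycomb mark, had 17, 15 and 20 counts in 1CT and 103, 90 and 117 in 1CT-A, a log2 fold change of 2.01 (SE 0.21, edgeR adjusted p = 5.9e-06). UHRF1, which brings the maintenance methyltransferase to new DNA, had 268, 272 and 199 counts against 1020, 1140 and 1218, a log2 fold change of 1.64. SUV39H2, a histone methyltransferase of heterochromatin, rose by 1.5 on the log2 scale. TET1 and TET3, which oxidize methylcytosine and so help to remove it, rose by 1.62 and 1.02. EZH1 fell by 1.10 and CBX7 by 1.05, both parts of Polycomb complexes. DNA methylation and histone marks were not measured in these libraries, and the part of any of these genes in the levels of the members was not tested.

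Start regions were compared for CpG content, a property of the sequence, between sets of genes that the counts define. A region of 300 bases was called CpG-rich at an observed to expected ratio of at least 0.6 and a GC content of at least 50%, in any of a gene's listed starts. Of the 74 members, 55 had an entry, and 36 of these (65.5%) were CpG-rich. The share was 88.9% (8105 of 9116) among the other symbols at 2 CPM or more in 1CT, and 85.9% (4051 of 4717) among those no higher in 1CT than the highest member. Over all 27305 symbols in the table, whether read in these lines or not, the share was 50.2%. With stricter limits, a ratio of at least 0.75 and a GC content of at least 55%, the shares became 45.5% for the members, 73.1% and 70.1% for the others and 38.9% for the whole table. Of the 9 genes of the exchanged rule, 6 had an entry, and 2 of these (33.3%) were CpG-rich, 1 (16.7%) under the stricter limits. A share below that of other genes read in 1CT was thus not particular to the members. The set no higher than the highest member reaches 26.2 CPM, while the median member was at 3.25 CPM, so it was not matched in level. The members lay between the genes read in 1CT and the whole table, as a description over genes, which are not independent replicates.

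**Figure D5:**
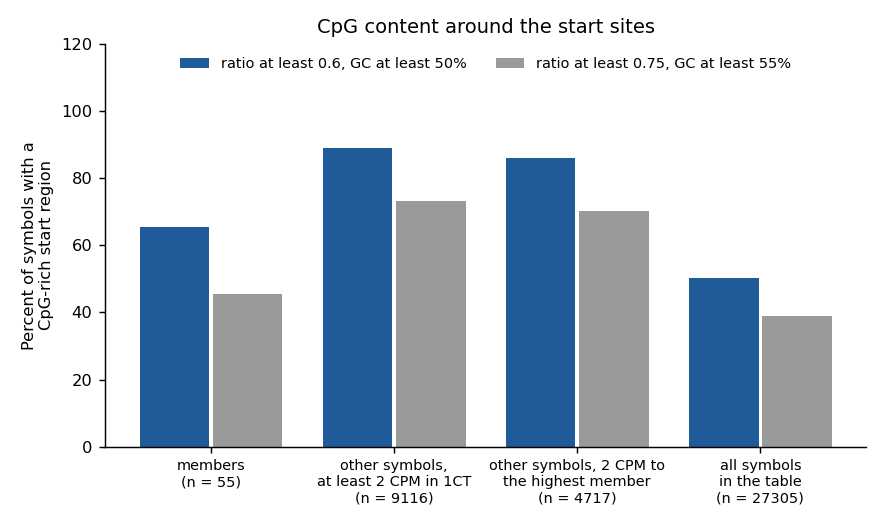
Percent of symbols whose 300 bases around a listed start are CpG-rich, under the limits used (blue) and stricter ones (grey), for the members, the other symbols at 2 CPM or more in 1CT, those among them no higher than the highest member, and all symbols in the table; n is the number with an entry. The members stand at 65.5% and 45.5%, below both sets of other genes read in 1CT and above the whole table. The genes of the exchanged rule are not drawn.

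Short motifs were looked for in the same windows on both strands. TATAAA, the core of the TATA box, was in the windows of 9.09% of the members, 8.24% of the other symbols at 2 CPM or more in 1CT and 14.0% of all symbols. CTTTGAT and CTTTGAA, the letters to which TCF/LEF factors bind, were in 1.82% and 3.64% of the members (1 and 2 of 55), in 1.95% and 3.84% of those other symbols and in 3.18% and 5.47% of all symbols. These 3 motifs do not overlap in their letters beyond the shared start of the last pair. A match is only a run of letters in this window and says nothing of binding.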

How the data were processed

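The deposited counts, whole numbers of reads per gene symbol made by the authors, were used as they stand: 25737 entries per file, of which 286 symbols occur more than once and were summed to 24462 symbols. Per the labels, libraries were made from total RNA with QuantSeq, and the submitters' processing notes name Bowtie2, edgeR and hg19 without roles or versions; the counting tool and its use of strand are not given in the sources used here. No normalization had been applied. The study's methods describe the work as bulk RNA sequencing but also name another RNA kit and a cDNA microarray, which differ from the labels.

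The members and all lists of genes were chosen with earlier results of these data known. Genes passing edgeR's filter (minimum count 10) were tested with the quasi-likelihood test after TMM scaling (edgeR 4.0.16, R 4.3.3; factors of 0.976 to 1.02 per library), with Benjamini-Hochberg adjustment at 0.05, and DESeq2 1.42.0 as an alternative. SE is the log2 fold change divided by the square root of F. Same-numbered libraries did not deviate together (correlations of -0.15, 0.207 and -0.134 over 8231 genes), so the numbers were not taken to pair them. The procedure was tested on simulated data.

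Values are given for the 30 members highest in 1CT, members within 500 kb of another, the 5 lowest, and the symbols just outside each limit; for neighbours, the 5 largest rises and falls called; for the exchanged rule, the 5 highest; for silencing genes, those called at a log2 fold change of at least 1 in size. KRT19 and SNAP25 have values as markers, ZNF793 and the other overlapping genes for their position, and the relatives named were chosen after their values were seen. Positions come from GENCODE 44 (GRCh38), not from the authors' build, with 22553 symbols placed by name or older name; promoters come from RefSeq. Total counts were 7788679 to 12602988 per library, and intervals cover counting error only. A few items are not reported here. The alternatives tried are in the closing section.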

Additional observations from a re-analysis of the deposited data

How the results depend on the processing

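The number of members, 78, rests on its limits. It became 174 at a mean of 1 CPM in 1CT, 18 at 5 CPM and 45 at no more than 1 count per library of 1CT-A. TMM scaling gave 82, with all 78 among them. Leaving out 1 library gave 76 to 100 members, 100 without 1CT-A replicate 2. Under the exchanged rule the 9 genes became 24 at 1 CPM and 1 at 5 CPM, and 9 to 18 with 1 library left out (18 without 1CT replicate 2). With 1 or 5 tested genes on each side of a member, 44 or 177 neighbours were lower and 40 or 183 higher. The total of neighbours changes with this setting, so these are counts and not shares. Over all genes tested, 26.0% were lower and 25.0% higher. The relatives called higher, 5, became 3 with at least 10 counts in every library and 8 with no filter on low counts, settings that also change how many are tested. The share of CpG-rich member promoters fell to 45.5% under the stricter limits. Each of these alternatives changes by construction what is selected or counted. With library size as the only scaling, 3014 genes were lower and 3441 higher, against 3257 and 3131.

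With the replicate block, 6091 genes were called against 6388 without it, 6000 of them shared (3098 lower and 2993 higher), and it was not used since the numbers do not pair the libraries. For the single genes and ratios, 1269 values kept their direction and side of the threshold, 19 passed it, 36 no longer did, and none reversed. Depth limits what can be seen of the members in 1CT-A: 3 counts in a library of 1CT-A are 0.238 to 0.269 CPM.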

Other observations

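A few genes near or related to members were uneven within a line, as values chosen after they were seen. JUP, the junction protein gene next to KRT19, had 94, 170 and 92 counts in 1CT and 9, 34 and 11 in 1CT-A. KRT18 had 84, 109 and 82 counts against 36, 80 and 62, and CADM1 had 1, 51 and 9 against 2, 13 and 0. In all 3 genes replicate 2 was the highest library of both lines. Other neighbours with large falls were BCO2, a carotenoid-cleaving enzyme beside NCAM1 (64, 71 and 58 against 7, 4 and 6 counts), the transcription factor gene FLI1 beside KIRREL3-AS2 (111, 102 and 81 against 12, 6 and 11), and RGS4, a regulator of G protein signalling beside C1orf110 (1081, 931 and 899 against 97, 114 and 87). BCO2 lies on the same side of NCAM1 as IL18, and TTC12, also a neighbour of NCAM1, had 7, 6 and 5 counts in 1CT and 42, 27 and 45 in 1CT-A.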
